A study of Mus musculus with 81 samples.

Results

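The 10 genes described here carry the calcium cycle of the heart muscle cell. They are Ryr2, Trdn, Jph2, Casq2, Casq1, Hrc, Atp2a2, Pln, Sln and Slc8a1, taken by name from the 22180 genes measured, with 1 probe set each, the brightest by mean over the 81 arrays among those annotated to that symbol alone. In fact each of the 10 had only 1 such probe set.

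Gene expression was measured with Affymetrix arrays in whole hearts of male mice of the BXD family, inbred recombinant strains bred from C57BL/6J and DBA/2J, and of both parents. There were 39 arrays of mice labelled high fat diet and 42 arrays of mice labelled chow diet, 81 in all. Both diets were available for 39 strains, made up of 37 BXD strains and the parents, and 3 further BXD strains had chow alone. Mice were 29 weeks old and fasted overnight, and each array held RNA pooled from about 5 animals of 1 strain and 1 diet. No other allele or agent is named for either group, and the sources used here do not state what the high fat food contained. The treatment text describes chow feeding for samples of both groups, so the diet of each array was taken from its own label. Since a pool is 1 measurement, the strain was the replicate, and the spread between the animals of a strain was not measured.

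In each heartbeat, calcium that enters through the L-type channel opens the ryanodine receptor, and calcium leaves the sarcoplasmic reticulum to start contraction. Relaxation follows as the SERCA pump returns calcium to the reticulum, under the brake of phospholamban and sarcolipin, and as the sodium-calcium exchanger moves calcium out of the cell. Calsequestrin and the histidine-rich calcium binding protein hold calcium inside the reticulum, triadin ties them to the release channel, and junctophilin keeps the reticulum close to the cell membrane.

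Values are given in the deposited units, which were rescaled so that the mean over all probe sets is 8 on each array and the SD is 2. The base of the scale is not known, so differences are given in units and not as folds, and levels of different genes are not compared. Totals per array are fixed by this scaling, and read depth does not apply to arrays. Correlations between whole arrays lay between 0.969 and 0.992, and the high fat array of BXD48 had the lowest median correlation with the others at 0.978. The number of arrays limits the precision. The 23 background control probe sets had mean levels between 4.872 and 10.243 units with a median of 5.818. No detection call was used here, so a level in that range, among them those of Casq1 and of the lowest Sln arrays, may not stand above background.

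Promoters of the genes on which the results turn are shown first, as the 250 bases before and the 50 bases after the RefSeq start site. The table held a promoter for 7 of the 10 genes; Sln, Atp2a2 and Trdn had no entry. Pln and Hrc are shown because both were lower on high fat, and Casq1 and Casq2 because these calsequestrin genes differed in how much of their variation lay between strains. On build GRCm38.p6 the windows are chr10:53337436-53337735 on the plus strand for Pln, chr7:45335019-45335318 on the plus strand for Hrc, chr1:172219846-172220145 on the minus strand for Casq1 and chr3:102086165-102086464 on the plus strand for Casq2. Capitals mark matches on either strand to CAGCTG, an E-box bound by muscle helix-loop-helix factors, and to AGATAA, an element bound by GATA factors. TATAAA, the letters of a TATA box, is marked as well, wherever in the window it lies.
Pln: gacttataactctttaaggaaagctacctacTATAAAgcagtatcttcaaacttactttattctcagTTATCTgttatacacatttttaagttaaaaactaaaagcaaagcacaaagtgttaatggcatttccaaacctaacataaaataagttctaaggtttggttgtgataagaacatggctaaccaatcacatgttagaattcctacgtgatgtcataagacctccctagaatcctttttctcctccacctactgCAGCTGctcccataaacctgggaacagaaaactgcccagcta
Hrc: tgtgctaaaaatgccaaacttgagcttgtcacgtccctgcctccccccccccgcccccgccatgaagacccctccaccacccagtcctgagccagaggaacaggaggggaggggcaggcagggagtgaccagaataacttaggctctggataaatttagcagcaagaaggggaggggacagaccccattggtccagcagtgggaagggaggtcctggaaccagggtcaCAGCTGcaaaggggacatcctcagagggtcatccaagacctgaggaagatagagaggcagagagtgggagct
Casq1: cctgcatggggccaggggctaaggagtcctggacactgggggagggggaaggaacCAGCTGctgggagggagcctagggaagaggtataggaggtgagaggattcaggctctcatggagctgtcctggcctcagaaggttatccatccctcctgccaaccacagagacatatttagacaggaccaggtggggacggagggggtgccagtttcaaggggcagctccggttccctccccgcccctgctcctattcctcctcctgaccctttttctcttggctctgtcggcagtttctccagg
Casq2: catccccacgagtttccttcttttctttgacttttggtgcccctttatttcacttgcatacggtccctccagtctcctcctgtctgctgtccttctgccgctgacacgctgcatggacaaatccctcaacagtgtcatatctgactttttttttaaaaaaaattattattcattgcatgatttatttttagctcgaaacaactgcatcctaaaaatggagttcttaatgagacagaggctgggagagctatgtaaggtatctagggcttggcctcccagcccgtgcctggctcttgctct
CAGCTG was found once in the Pln, Hrc and Casq1 windows and not in that of Casq2. The Pln window also held 1 match to AGATAA, read on the opposite strand, and 1 to TATAAA. Of 32851 mouse promoter windows of the same length, 16.3% held CAGCTG, 11.2% AGATAA and 13.6% TATAAA. These matches describe the letters of the windows alone.

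The first question was whether the calcium cycle genes differed between high fat and chow hearts of the same strain. Of the 10 genes, 3 fell on high fat (Hrc, Trdn and Pln), 0 rose and 7 did not pass. All 3 changes were small, between 0.06 and 0.15 units. The test was limma with strain as a block over the 39 strains, with Benjamini-Hochberg adjustment over 22180 genes and a threshold of 0.05. By the same test 45% of all genes passed, 21.2% lower and 23.8% higher on high fat. No test set the counts among the 10 genes against these shares. The median difference was -0.0025 units over the 10 genes and 0.0053 units over all genes. For each of the 10 genes the high fat and chow values overlapped.

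**Figure D1:**
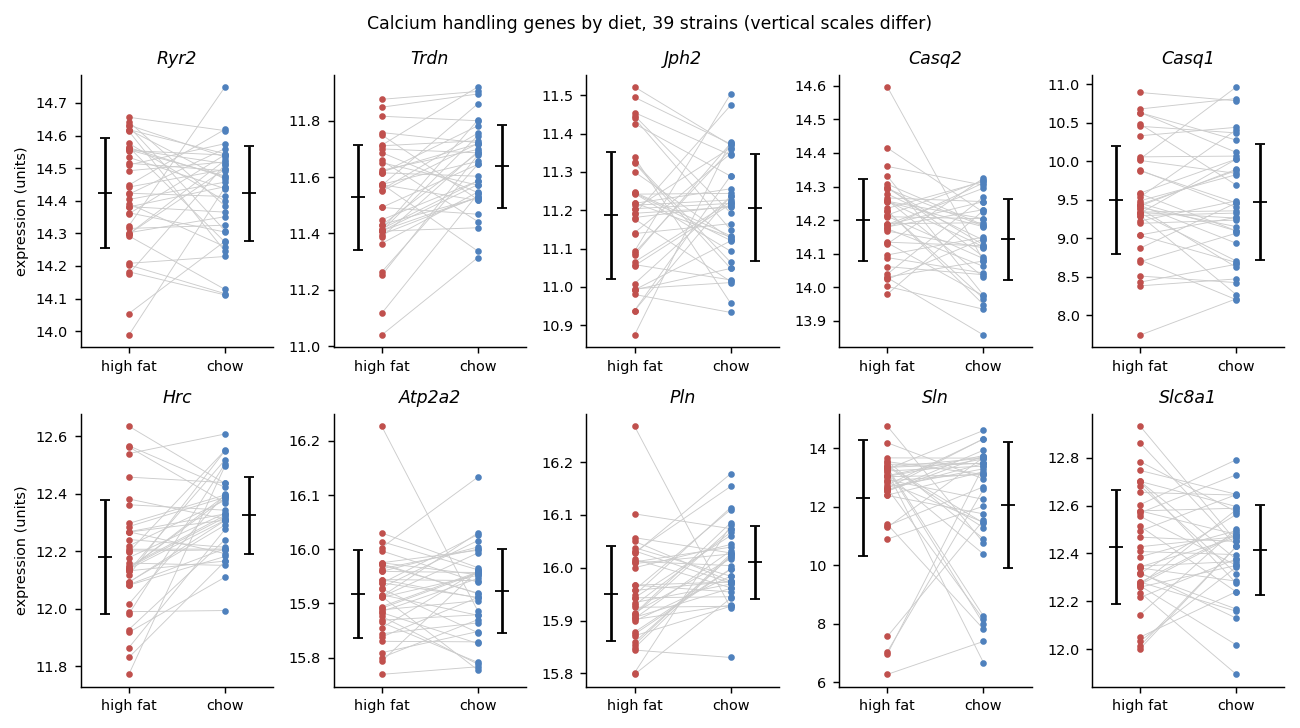
Expression in units of the 10 calcium handling genes in the 39 strains with both diets, high fat (red) left of chow (blue). Grey lines join the arrays of a strain, and black bars give the mean and SD over strains. The ranges of both diets overlap in every panel, and Sln spans the widest range, with a separate low cluster on either diet.

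Hrc, the histidine-rich calcium binding protein of the reticulum lumen, showed the largest fall. Its values on high fat ran between 11.771 in BXD63 and 12.634 in BXD68 with a median of 12.147, against 11.993 in BXD70 to 12.607 in BXD100 with a median of 12.324 on chow. High fat hearts thus reached lower values, while both ranges ended at a similar height. The means were 12.179 ± 0.199 on high fat and 12.325 ± 0.134 on chow (SD, n = 39 strains each). The difference was -0.146 ± 0.0326 units (SE; 95% interval -0.211 to -0.0799; limma adjusted p = 0.000313), and 30 of 39 strains were lower on high fat. Single strains ranged between -0.725 units in BXD63 and 0.199 units in BXD68.

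Trdn encodes triadin, which anchors calsequestrin to the release channel. On high fat its lowest value was 11.039 in BXD97, its median 11.555 and its highest 11.876 in DBA/2J, against 11.314 in BXD97, 11.645 and 11.920 in BXD87 on chow. BXD97 was the lowest strain on either diet. Mean levels were 11.528 ± 0.188 on high fat and 11.638 ± 0.147 on chow (SD, n = 39 strains each). The fall of Trdn came to -0.110 ± 0.0291 units (SE; 95% interval -0.168 to -0.0510; limma adjusted p = 0.00203) and was seen in 28 of 39 strains.

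Pln encodes phospholamban, the inhibitor of the SERCA pump in the ventricle. It ranged on high fat between 15.798 in BXD101 and 16.268 in BXD48 with a median of 15.943, against 15.830 in BXD99 to 16.178 in BXD71 with a median of 16.004 on chow. The highest high fat value belonged to the BXD48 array with the lowest correlation with other arrays. Pln averaged 15.951 ± 0.0899 on high fat and 16.010 ± 0.0695 on chow (SD, n = 39 strains each). The difference of -0.0586 ± 0.0208 units (SE; 95% interval -0.100 to -0.0167; limma adjusted p = 0.0192) was lower on high fat in 29 of 39 strains. Pln lay only 0.476 to 0.753 units below the highest probe set of each array, close to the upper end of the measured range.

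**Figure D2:**
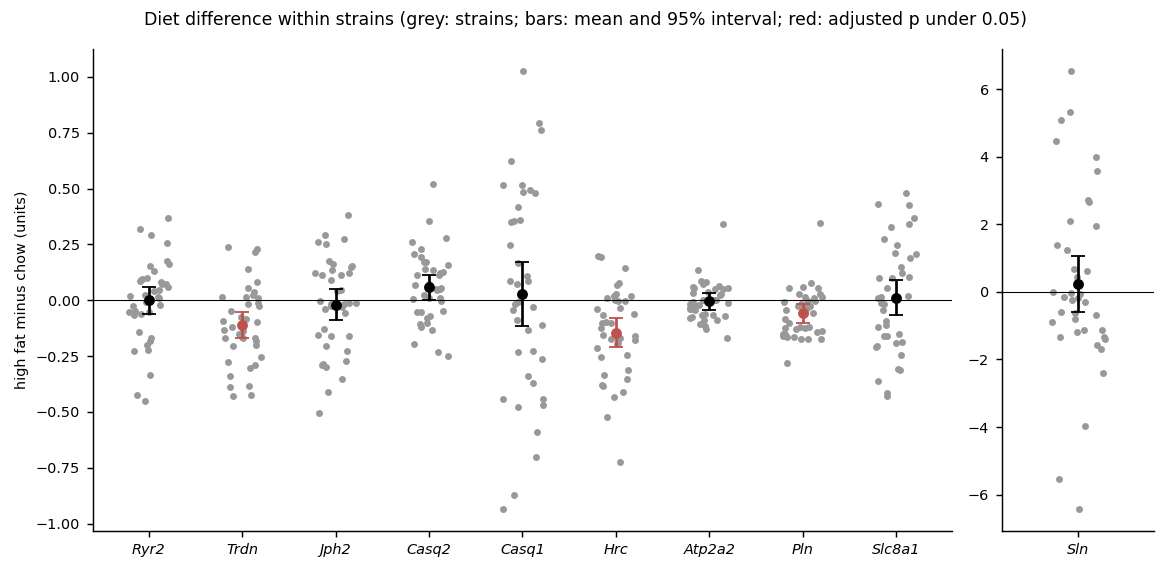
High fat minus chow difference in units for each gene. Grey points are the 39 strains, larger points with bars are the mean and its 95% interval, and red marks an adjusted p under 0.05. Hrc, Trdn and Pln lie below 0, and Sln, on a scale of its own, spreads between -6.42 and 6.525 units.

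The other 7 genes did not pass. Casq2, the cardiac calsequestrin and main calcium buffer of the reticulum, averaged 14.200 ± 0.123 on high fat and 14.142 ± 0.121 on chow (SD, n = 39 strains each). Its difference was 0.0574 ± 0.0273 units (SE; 95% interval 0.0024 to 0.112; limma adjusted p = 0.0824), with 26 of 39 strains higher on high fat. The adjusted p for Casq2 was 0.0224 after quantile normalization, 0.0472 without BXD50 and 0.0424 without BXD68, so the outcome of its test depended on these choices.

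Ryr2, the release channel itself, had almost the same mean on both diets, 14.423 ± 0.169 on high fat and 14.423 ± 0.146 on chow (SD, n = 39 strains each). The 95% interval of its difference ran between -0.0621 and 0.0608 units (limma adjusted p = 0.988). Jph2, the junctophilin that spans the gap between the reticulum and the T-tubule, had an interval of -0.0887 to 0.0488 units (limma adjusted p = 0.661). Neither gene passed, and these intervals bound the diet difference that could remain.

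Atp2a2, the SERCA pump gene, averaged 15.918 ± 0.0811 on high fat and 15.923 ± 0.0777 on chow (SD, n = 39 strains each). Its difference had an interval of -0.0420 to 0.0332 units (limma adjusted p = 0.868), the narrowest of the 10. Like Pln it lay near the top of the arrays, 0.560 to 0.804 units below the highest probe set. Slc8a1, the sodium-calcium exchanger, had an interval of -0.0673 to 0.0899 units (limma adjusted p = 0.837), with 20 of 39 strains higher on high fat. Casq1, the calsequestrin typical of skeletal muscle, had an interval of -0.114 to 0.173 units (limma adjusted p = 0.763). Sln, the sarcolipin gene, had an interval of -0.590 to 1.05 units (limma adjusted p = 0.671), too wide to bound a change of the size seen for Hrc.

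Markers of the heart muscle cell moved with these results. Of 9 cardiomyocyte markers, 6 fell on high fat and 0 rose, where 21.2% of all genes fell and 23.8% rose, among them Myoz2 by 0.115 units and Tnnc1 by 0.118 units, and the mean of the 9 was lower in 29 of 39 strains. That mean lay between 14.932 and 15.348 units on high fat and between 15.019 and 15.394 units on chow. The lowest value of any of the 9 markers on any array was 13.838 units, above every mean level of the background probe sets. In the same fit 3 of 7 fibroblast, 4 of 7 macrophage and 5 of 7 mesothelial markers rose and 0 fell. Of 7 endothelial markers 2 rose and 1 fell, and of 5 lung markers 3 rose and 1 fell. In whole hearts, fewer cells of a type and less RNA per cell cannot be told apart.

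When the cardiomyocyte marker mean was entered as a covariate, a setting chosen after seeing the data, only Trdn remained lower, at -0.122 units (limma adjusted p = 0.00628). The difference was -0.0635 units for Hrc (limma adjusted p = 0.132) and -0.0093 units for Pln (limma adjusted p = 0.768). Casq2 was then higher on high fat by 0.110 units (limma adjusted p = 0.00362). The part of the marker shift in the falls of Hrc and Pln was not otherwise tested.

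Strain by strain, the shift of the cardiomyocyte mean went with the shift of several of the 10 genes, with permutation p-values adjusted over 10 relations and 39 strains. The share of all genes that would pass was not determined, so the number that passed is not read as a trait of the 10 genes. Pearson r was 0.668 for Pln (Spearman rho 0.572, adjusted permutation p = 0.00015 for r and 0.0016 for rho) and 0.524 without the 2 most distant strains. In relations with a marker mean, the 2 most distant are those farthest from the median of that mean, or of its shift. For Hrc, r was 0.601 (rho 0.546, adjusted permutation p = 0.000233 for r and 0.0022 for rho) and 0.538 without the 2 most distant strains. Trdn had r = -0.100 (rho -0.083, adjusted permutation p = 0.543 for r and 0.611 for rho). Genes with no diet difference past the threshold moved with the marker mean as well. These were Atp2a2 at r = 0.649 (rho 0.513, adjusted permutation p = 0.00015 for r and 0.003 for rho), Casq2 at 0.483 (rho 0.412, adjusted permutation p = 0.00508 for r and 0.0168 for rho), Ryr2 at 0.470 (rho 0.407, adjusted permutation p = 0.00508 for r and 0.0168 for rho) and Slc8a1 at 0.419 (rho 0.343, adjusted permutation p = 0.0125 for r and 0.0466 for rho). Without the 2 most distant strains their r was 0.448, 0.362, 0.316 and 0.274. Of the 10 genes, Trdn, Sln, Casq1 and Jph2 did not pass by r. Sln passed by rho alone and in the negative direction (r = -0.306, rho -0.422, adjusted permutation p = 0.0729 for r and 0.0168 for rho; r = -0.452 without the 2 most distant strains). Within high fat and within chow the r of Pln with the marker mean was 0.744 and 0.602, and that of Hrc 0.625 and 0.427.

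Spike-in control probe sets, which have no mouse target, also passed the diet test in 37 of 92 cases (40.2%). The 95th percentile of their absolute difference was 0.247 units, larger than the difference of any of the 10 genes, at a mean level of 5.962 units. Of the 23 background probe sets 6 passed (26.1%), with a 95th percentile of 0.0704 units, which the differences of Hrc, Trdn and Sln, 3 of the 10 genes, exceeded and that of Pln did not. The labels give no scan or hybridisation batch, so a shift between the high fat and the chow arrays as sets and an effect of diet cannot be told apart.

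The next comparison was among strains, with the arrays of a strain on high fat and on chow as its repeated measurement. Here 2 of the 10 genes passed the limma F test over strains, Casq1 and Trdn, against 14.8% of all genes. The intraclass correlation, the share of variance that lay between strains after the diet means were removed, was 0.792 for Casq1 and 0.468 for Trdn. Its median over all genes was 0.155, and its 95th percentile was 0.559. Casq1 stood at the 99.1 percentile of all genes.

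**Figure D3:**
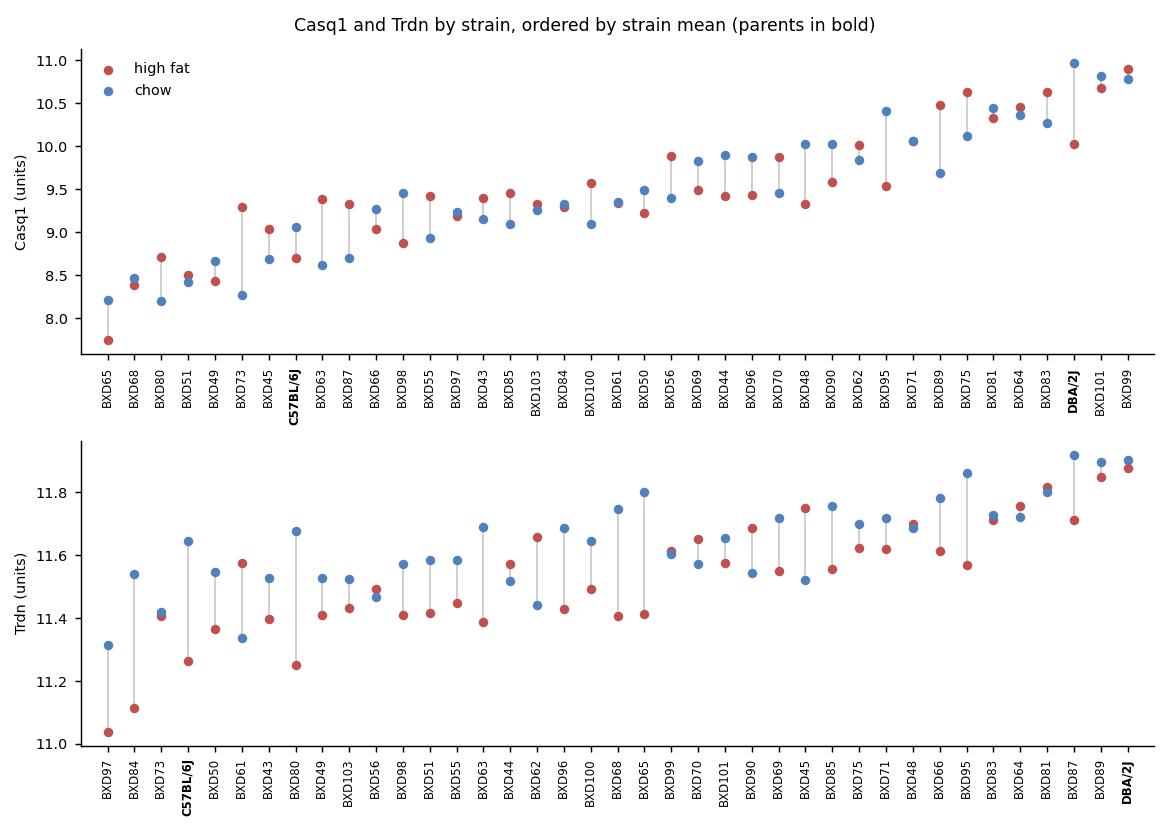
Casq1 (upper panel) and Trdn (lower panel) in units for each of 39 strains, ordered by strain mean, with high fat in red and chow in blue and parents in bold. Casq1 spans almost 3 units between strains with both diets of most strains close together, and DBA/2J lies near the upper end of either panel.

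Casq1 ranged on high fat between 7.742 in BXD65 and 10.892 in BXD99 with a median of 9.419, against 8.201 in BXD80 to 10.964 in DBA/2J with a median of 9.400 on chow. Strain means over both diets ran between 7.978 in BXD65 and 10.838 in BXD99 (limma F test, adjusted p = 1.56e-09). In BXD65 both arrays were below both arrays of BXD99. This spread was wider than any diet shift of the gene, which lay between -0.934 units in DBA/2J and 1.025 units in BXD73. Markers of skeletal muscle, the tissue in which Casq1 is the main calsequestrin, had a low mean on all arrays. It lay between 7.477 and 7.828 units on high fat and between 7.399 and 7.733 units on chow. The intraclass correlation of that mean was -0.048, and that of Casq1 with it as a covariate was 0.791. A covariate with no share of variance between strains could hardly lower that of Casq1, so nothing is drawn from the 0.791. Single markers of the list were higher, and Mybpc2, the fast myosin binding protein, was at 9.317 ± 0.310 on high fat and 9.503 ± 0.373 on chow (SD, n = 39 strains each). Mybpc2 had an intraclass correlation of 0.548 (limma F test, adjusted p = 0.00066), and its DBA/2J minus C57BL/6J difference of 0.580 units did not pass (limma adjusted p = 0.203). Over strain means Casq1 and the skeletal marker mean had r = 0.337 (rho 0.316, adjusted permutation p = 0.12 for r and 0.165 for rho; r = 0.208 without the 2 most distant strains). The part of skeletal muscle in the strain differences of Casq1 was not tested.

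The parents differed in the same gene. Casq1 was at 10.030 on high fat and 10.964 on chow in DBA/2J, against 8.695 on high fat and 9.065 on chow in C57BL/6J. DBA/2J minus C57BL/6J was 1.62 ± 0.314 units (SE from all 39 strains; limma adjusted p = 0.00094). Of the 37 BXD strains, 28 had a mean between the parents, 2 above both and 7 below both. Of the 10 genes 1 passed between the parents, Casq1, against 2.36% of all genes. The sequences of the array probes were not used here, so a parental variant under a probe was not looked for.

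Trdn strain means ran between 11.176 in BXD97 and 11.890 in DBA/2J (limma F test, adjusted p = 0.0182). Without BXD97 the adjusted p was 0.0784 and the intraclass correlation 0.379, so this call rested on that strain. In DBA/2J Trdn was at 11.876 on high fat and 11.904 on chow, against 11.263 on high fat and 11.645 on chow in C57BL/6J. The parental difference of 0.436 ± 0.129 units (SE) did not pass (limma adjusted p = 0.0587). A mean between the parents was found in 34 of 37 BXD strains, and 3 were below both.

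For the other 8 genes the F test did not pass. Atp2a2 had an intraclass correlation of 0.376 (limma adjusted p = 0.38), which was 0.137 after quantile normalization, Slc8a1 0.347 (adjusted p = 0.0602), Ryr2 0.320 (adjusted p = 0.121) and Hrc 0.313 (adjusted p = 0.116). Casq2 had 0.142 (adjusted p = 0.462), Sln 0.134 (adjusted p = 0.245), Pln 0.103 (adjusted p = 0.769) and Jph2 0.0649 (adjusted p = 0.515). Slc8a1 passed with arrays centred on their median (adjusted p = 0.0451) and without BXD48, BXD69, BXD71 or BXD75 (adjusted p down to 0.0429), and Hrc passed without BXD63 (adjusted p = 0.0433). The calsequestrins lay far apart on this measure, with 0.792 for Casq1 and 0.142 for Casq2, although the difference between these was not tested.

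The third comparison was with atrial content. Sln, which inhibits the SERCA pump in the atria of the mouse, was measured beside 9 other atrial markers, among them Myl7, the atrial myosin light chain, Nppa, the atrial natriuretic peptide, and Bmp10. None of the 9 is among the 10 genes, but Sln is an atrial gene itself. The lists were chosen with earlier results of these data known, so a slope of Sln was close to given in advance. Sln rose with the mean of the 9 on either diet, and of the 10 genes it alone, 1 of 10, had a slope that passed. The slope passed in 2.61% of all genes within high fat, in 1.52% within chow and in 2.51% for the high fat minus chow shifts.

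**Figure D4:**
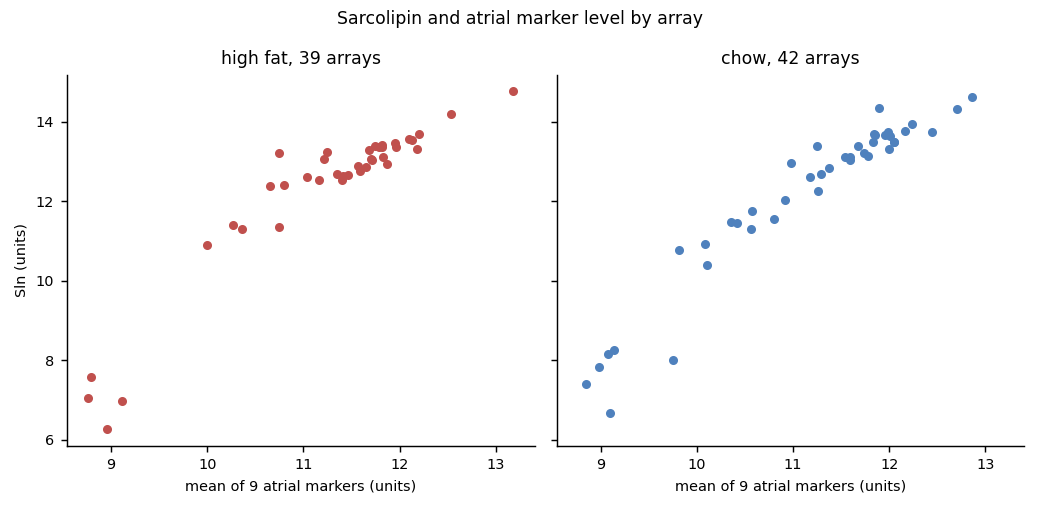
Sln in units against the mean of 9 atrial markers in units, 1 point per array, high fat left of chow. Arrays with Sln below 8.3 units also have an atrial mean below 9.8 units, and above them Sln climbs with the atrial mean on either diet.

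Sln ranged on high fat between 6.275 in BXD65 and 14.760 in BXD63 with a median of 12.927, against 6.674 in BXD73 to 14.616 in BXD87 with a median of 13.103 on chow. These values fell into a high and a low cluster. On high fat 35 arrays lay between 10.900 and 14.760 units, and 4 arrays (BXD65, BXD44, BXD68 and BXD71) between 6.275 and 7.570. On chow, with the strains of chow alone included, 36 arrays lay between 10.389 and 14.616 units, and 6 (BXD73, BXD65, BXD61, BXD81, DBA/2J and BXD80) between 6.674 and 8.266. BXD65 was the only strain in the low cluster on both diets. All low values lay within the range of the background probe sets, so differences that end there are bounds. The atrial marker mean in the low cluster was 8.762 to 9.109 units on high fat and 8.842 to 9.751 units on chow, and in the high cluster 10 to 13.185 units on high fat and 9.818 to 12.857 units on chow.

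The slope of Sln was 1.83 ± 0.106 units per unit of the atrial mean on high fat (SE; limma adjusted p = 3.18e-17) and 1.86 ± 0.0832 on chow (SE; limma adjusted p = 1.68e-22). Restricted to the high cluster, a setting chosen after seeing the data, the slope was 1.08 on high fat and 1.36 on chow. Within that cluster Pearson r was 0.909 on high fat (Spearman rho 0.879, n = 35) and 0.954 on chow (rho 0.937, n = 36), each with a permutation p of 1e-05, the smallest that 100000 permutations can give. Without the 2 arrays farthest from the median atrial mean, r was 0.862 on high fat and 0.941 on chow. In the 6 low chow arrays r was 0.287 (exact permutation p = 0.564) and rho 0.429 (exact permutation p = 0.419), and the 4 low high fat arrays were too few for a value.

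The shift of Sln between diets followed the shift of the atrial mean with a slope of 1.81 ± 0.114 (SE; limma adjusted p = 5.13e-16). Strain shifts of Sln ran between -6.420 units in BXD44 and 6.525 units in BXD73, both ending in a low array, and 16 strains were higher on high fat and 23 lower. With the atrial mean as a covariate the diet difference of Sln was -0.0591 ± 0.158 units (SE; limma adjusted p = 0.787) and its intraclass correlation -0.236. In DBA/2J Sln was at 8.153 on chow against 12.630 on high fat, and the atrial mean at 9.080 against 11.417. The parental difference of Sln, -3.03 ± 1.80 units (SE; limma adjusted p = 0.51), became 0.142 ± 0.720 units with the covariate. Sln had r = 0.936 with the atrial mean on high fat and 0.958 on chow. The covariate thus takes out most of the variation of Sln whatever its source, and the source was not tested. None of the 9 atrial markers passed the diet test, and their mean was higher on high fat in 18 of 39 strains and lower in 21.

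Pln and Hrc had negative slopes on the atrial mean that did not pass over all genes, with -0.0453 units per unit on high fat for Pln (limma adjusted p = 0.115) and -0.0862 for Hrc (limma adjusted p = 0.105). Set against the atrial mean as 10 relations alone, with permutation p-values adjusted over the 10, both were negative. In the 35 high fat arrays of the high Sln cluster r was -0.491 for Pln (rho -0.530, adjusted permutation p = 0.0105 for r and 0.00635 for rho; r = -0.506 without the 2 most distant arrays) and -0.520 for Hrc (rho -0.420, adjusted permutation p = 0.0066 for r and 0.0444 for rho; r = -0.396 without the 2 most distant arrays). For Atp2a2 in the same arrays r was -0.387 and rho -0.395 (adjusted permutation p = 0.0562 for r and 0.0468 for rho; r = -0.448 without the 2 most distant arrays). In the 36 chow arrays of that cluster Pln had r = -0.423 and rho -0.457 (adjusted permutation p = 0.0524 for r and 0.0255 for rho; r = -0.416 without the 2 most distant arrays), and Hrc had r = -0.311 and rho -0.273 (adjusted permutation p = 0.162 for r and 0.248 for rho). Over the 39 shifts r was -0.435 for Pln (rho -0.543, adjusted permutation p = 0.0167 for r and 0.00265 for rho; r = -0.402 without the 2 most distant strains) and -0.489 for Hrc (rho -0.459, adjusted permutation p = 0.00825 for r and 0.0118 for rho; r = -0.375 without the 2 most distant strains). Pln and Hrc were lower where the atrial mean was higher, in the high fat arrays of the high cluster and over the shifts. This holds with adjustment over the 10 relations alone, of which Sln is 1, and the cluster was chosen after seeing the data. Over all genes the slopes of the shifts did not pass (limma adjusted p = 0.28 for Pln and 0.0719 for Hrc). Entering the atrial mean left both diet differences in place, at -0.0532 units for Pln (limma adjusted p = 0.026) and -0.134 units for Hrc (limma adjusted p = 0.000266).

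The 10 genes were also set against each other over the 39 strains, in 45 pairs of strain means and 45 pairs of shifts, with permutation p-values adjusted over each set of 45. Points in these relations share arrays and tissue make-up, and how often pairs among all genes would pass was not determined. Over strain means 5 pairs passed by Pearson r, 4 positive and 1 negative. The closest pair was the pump and its inhibitor, Atp2a2 and Pln, with r = 0.766 (Spearman rho 0.708, adjusted permutation p = 0.00045 for both) and r = 0.684 without the 2 most distant strains. For pairs among the 10 genes, these are the 2 strains farthest from the median of the gene named first. Within high fat the r of Atp2a2 and Pln was 0.769 and within chow 0.695. Both genes lay near the top of the arrays, and the highest value of an array ran between 16.468 and 16.92 units. After quantile normalization the intraclass correlation was 0.137 for Atp2a2 and -0.244 for Pln, against 0.376 and 0.103 before. The pair was not computed in that setting, so the part of the upper range of the arrays in its r was not tested. Both genes also went with the cardiomyocyte marker mean over strain means, at r = 0.717 for Atp2a2 (rho 0.709, adjusted permutation p = 5e-05 for r and 0.0001 for rho; r = 0.672 without the 2 most distant strains) and 0.700 for Pln (rho 0.627, adjusted permutation p = 5e-05 for r and 0.00025 for rho; r = 0.670 without the 2 most distant strains).

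The negative pair was Ryr2 and Casq1, with r = -0.579 (rho -0.545, adjusted permutation p = 0.00225 for r and 0.00885 for rho; r = -0.513 without the 2 most distant strains). Casq1 and Trdn, the genes with the largest share of variance between strains, had r = 0.482 (rho 0.535, adjusted permutation p = 0.0228 for r and 0.00885 for rho; r = 0.517 without the 2 most distant strains). Within high fat that r was 0.569 and within chow 0.226. Ryr2 and Atp2a2 had r = 0.497 (rho 0.498, adjusted permutation p = 0.0202 for r and 0.017 for rho; r = 0.411 without the 2 most distant strains). Casq2 and Slc8a1 had r = 0.453 (adjusted permutation p = 0.032), and their rho of 0.378 did not pass (adjusted permutation p = 0.137).

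**Figure D5:**
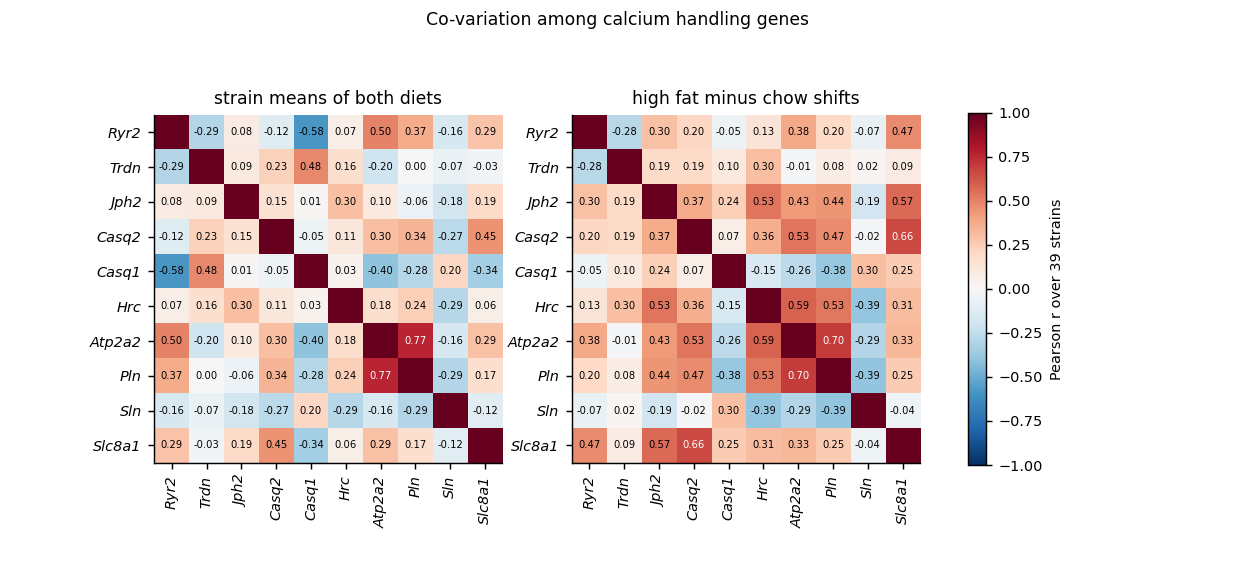
Pearson r over 39 strains between the 10 genes, for strain means of both diets (left) and for high fat minus chow shifts (right). Atp2a2 and Pln form the closest pair in both panels, at 0.766 and 0.701, and Ryr2 and Casq1 give the lowest strain mean value at -0.579.

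Over the diet shifts 11 of 45 pairs passed by r, all of them positive, and 8 of these passed by rho as well. How often pairs of other genes pass was not determined, so the count is not read as a trait of these 10 genes. By rho alone 2 negative pairs passed, Pln and Sln (rho -0.556, adjusted permutation p = 0.00342, and r = -0.392 with 0.0521) and Hrc and Sln (rho -0.454, adjusted permutation p = 0.0222, and r = -0.386 with 0.0521). Atp2a2 and Pln again had the highest value, r = 0.701 (rho 0.569, adjusted permutation p = 0.00045 for r and 0.00259 for rho), and 0.477 without the 2 most distant strains. The largest shift of either gene was that of BXD48, whose high fat array had the highest maximum of all arrays, 16.92 units. Casq2 and Slc8a1 had r = 0.659 (rho 0.655, adjusted permutation p = 0.00045 for r and 0.00135 for rho), and 0.589 without the 2 most distant strains. Pln and Hrc, which both fell on high fat, had r = 0.531 (rho 0.526, adjusted permutation p = 0.00469 for r and 0.0051 for rho), and 0.540 without the 2 most distant strains. Hrc went at least as closely with Atp2a2 (r = 0.590, adjusted permutation p = 0.00169) and Jph2 (r = 0.535, adjusted permutation p = 0.00306), which did not pass the diet test. Trdn, which fell on high fat like Pln and Hrc, was in none of the 11 pairs.

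The genes whose strain means were most like those of each gene were looked up among 10492 genes above the median level, by Pearson r over the 39 strains and with no test. Ryr2 was most like Ttn, the giant sarcomere protein titin, at 0.798. For Atp2a2 the closest were ND4, a mitochondrially encoded subunit of complex I, at 0.834, and Atp5b, a subunit of the ATP synthase, at 0.812. For Pln they were Cd36, the fatty acid transporter, at 0.821, and COX1, a mitochondrially encoded subunit of cytochrome oxidase, at 0.790. Sln was closest to Myl7 at 0.989 and to Mybphl at 0.967, both from the atrial list.

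Among the release and storage genes, Casq1 was most like Fbln5, an elastic fibre protein, at 0.660, and Stim2, a sensor of reticulum calcium, at 0.619. Casq2 was closest to Klhdc8a at 0.788 and Trdn to Mocs2 at 0.773. Hrc was closest to Glrx5, a mitochondrial glutaredoxin, at 0.714, Jph2 to Abhd5, the activator of the fat triglyceride lipase, at 0.674, and Slc8a1 to Uba3 at 0.636.

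Other genes of the calcium cycle, 65 on 7 lists, of which 55 were measured, give the setting. Of the 55, 8 rose on high fat, 16 fell and 31 did not pass, with a median of -0.0037 units, where 45% of all genes passed, 23.8% higher and 21.2% lower. Among 10 partners of the release channel 2 rose and 3 fell. S100a1, a calcium sensor that acts on the release channel and the pump, was at 13.933 ± 0.122 on high fat and 14.118 ± 0.0881 on chow (SD, n = 39 strains each), a difference of -0.185 units (limma adjusted p = 2.01e-08) and lower on high fat in 36 of 39 strains. Fkbp1a, the channel's immunophilin partner, fell by 0.174 units (limma adjusted p = 8.32e-07), in 32 of 39 strains. Tmem38a and Tmem38b, the TRIC channels that carry the counter-current of potassium, differed by -0.0720 units (limma adjusted p = 0.0199) and 0.0872 units (limma adjusted p = 0.0225).

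Among 8 regulators of uptake 4 rose and 2 fell. Ppp1r3a, a muscle targeting subunit of protein phosphatase, fell by 0.140 units (limma adjusted p = 0.000257), and Ppp1ca, the phosphatase's catalytic subunit, fell by 0.181 units (limma adjusted p = 0.00155). Akap7, which anchors protein kinase A near phospholamban, was higher by 0.0803 units (limma adjusted p = 0.00426), and Mrln, a micropeptide inhibitor of SERCA in skeletal muscle, by 0.134 units (limma adjusted p = 0.0116), at 6.914 units on high fat and 6.781 on chow, within the range of the background probe sets. Of 11 kinases and phosphatases 4 fell and 0 rose. Camk2d, the main cardiac calmodulin kinase, fell by 0.149 units (limma adjusted p = 2.23e-06), in 33 of 39 strains, and the protein kinase A catalytic genes Prkacb and Prkaca fell by 0.0948 and 0.0800 units (limma adjusted p = 0.00292 and 0.0122).

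None of the 5 L-type channel genes passed, and none of the 5 genes of export across the cell membrane and sodium transport. Of 6 mitochondrial genes 2 fell, Micu3, a regulator of the uniporter, by 0.186 units (limma adjusted p = 0.00378) and Slc8b1, the mitochondrial exchanger, with a difference of -0.0606 units (limma adjusted p = 0.039). Among 10 isoforms and store channels 2 rose and 5 fell. Slc8a3, an exchanger isoform of skeletal muscle and brain, was at 6.928 ± 0.193 on high fat and 7.262 ± 0.173 on chow (SD, n = 39 strains each), a difference of -0.334 units (limma adjusted p = 2.83e-09) within the range of the background probe sets. Atp2a1, the SERCA gene of fast skeletal muscle, was at 8.668 ± 0.349 on high fat and 8.342 ± 0.356 on chow (SD, n = 39 strains each), a difference of 0.326 units (limma adjusted p = 0.000229), also within that range. The mean levels of Micu3, Slc8b1, Akap7 and Tmem38b lay within the range of the background probe sets on both diets as well.

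Between strains 13 of these 55 genes passed the F test, and 1 passed between the parents, where 14.8% and 2.36% of all genes did. The intraclass correlation was 0.765 for Atp1b1, a subunit of the sodium pump, 0.735 for Asph, the gene that also makes junctin, and 0.664 for Sri, the gene of sorcin. Casq1 at 0.792 lay above each of the 55.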

How the data were processed

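Hearts were profiled on Affymetrix arrays, and the submitters' processing notes name Affymetrix Expression Console, with no version. The authors deposited 1 table of normalized values for 41345 probe sets, treated here as a score, since the array means of 8 and SDs of 2 show a rescaling whose log base the sources used here do not give. The plan allowed for log2 values; because the base is unknown, differences stayed in units.

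Groups came from the diet labels, and strain labels paired the arrays. Deviations from the diet means had a median correlation of 0.247 within a strain and -0.008 between strains, and 37 of 39 strains exceeded 0.1. Of 25335 probe sets in the platform annotation, 23521 had 1 gene symbol, 1814 had several and were left out. Probe sets with the highest mean gave 22180 genes, with no filter on level. limma 3.58.1 in R 4.3.3 fitted strain and diet; further fits gave the F test over strains, DBA/2J minus C57BL/6J and the slope on the atrial marker mean, all adjusted by Benjamini-Hochberg over 22180 genes. The fits were tested on simulated data. All 10 genes are described; of each further calcium list up to 4 genes with the smallest adjusted p are named, and per gene the strain mean neighbours with the highest r. Genes and lists were chosen with earlier results of these data known. Alternatives covered scaling, probe sets, level filter, eBayes settings, array weights, strains left out and marker covariates. Control probe sets were fitted over all probe sets.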

Additional observations from a re-analysis of the deposited data

How the results depend on the processing

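Hrc, Trdn and Pln stayed lower on high fat with an adjusted p under 0.05 in every alternative tried and without each strain in turn, except that Hrc and Pln did not pass with the cardiomyocyte covariate, chosen after seeing the data. That covariate gave -0.0635 units for Hrc, -0.00927 for Pln, 0.0351 for Atp2a2, 0.0586 for Ryr2, 0.0277 for Jph2, -0.0443 for Casq1 and -0.339 for Sln, with 1 gene lower and 1 higher (Casq2); the cause was not tested. Quantile normalization gave 1 gene higher (Casq2), 0.0123 units for Ryr2, an intraclass correlation of -0.244 for Pln and 2 genes past the threshold between parents (Casq1 and Trdn). Ryr2, whose interval is centred on 0, was 0.00496 with array weights, 0.000568 over 37 BXD strains and 0.0244 without the 6 strains of the least correlated arrays, also chosen later. With the atrial covariate Sln was -0.0591 with an intraclass correlation of -0.236, and DBA/2J minus C57BL/6J was -0.0410 for Pln, 0.142 for Sln, -0.00343 for Casq2 and -0.0225 for Jph2. Leaving out single strains gave -0.0104 to 0.0112 units for Ryr2, -0.00111 to 0.0228 for Slc8a1 (negative without BXD84), 0 to 1 genes higher (1 without BXD50 or BXD68), intraclass correlations of -0.0541 to 0.197 for Sln (negative without BXD65) and 0.379 to 0.508 for Trdn, and 1 to 3 genes that differed between strains (1 without BXD97; 3 without BXD48, BXD69, BXD71 or BXD75, through Slc8a1, or without BXD63, through Hrc). Without the replicate block, over all 81 arrays, Hrc was -0.151, Trdn -0.104 and Pln -0.0577 units, and no call among the 10 genes changed. Each gene had 1 probe set, so averaging probe sets could not move it. Each strain had 1 pooled array per diet, so spread between animals was not measured.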

Other observations

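Because Casq1 differed so widely between strains, the 12 measured genes nearest to it in the RefSeq gene order, 6 on either side, were set beside it over the 39 strain means, a choice made after its values were seen. Permutation p-values were adjusted over the 12 relations. Copa, a coat protein of transport vesicles, had r = -0.553 (Spearman rho -0.559, adjusted permutation p = 0.00292 for r and 0.00444 for rho; r = -0.543 without the 2 most distant strains) and an intraclass correlation of 0.758. Ncstn, the gamma-secretase subunit nicastrin, had r = -0.525 (rho -0.470, adjusted permutation p = 0.00292 for r and 0.00813 for rho; r = -0.472 without the 2 most distant strains) and an intraclass correlation of 0.876. DBA/2J minus C57BL/6J was -0.399 units for Ncstn (limma adjusted p = 0.00951), against 1.62 units for Casq1. Pea15a had r = 0.516 (rho 0.471, adjusted permutation p = 0.00292 for r and 0.00813 for rho; r = 0.447 without the 2 most distant strains), and Dcaf8 r = -0.489 (rho -0.505, adjusted permutation p = 0.00489 for r and 0.0072 for rho; r = -0.454 without the 2 most distant strains). The other 8 neighbours did not pass. The share of all genes with such an r to Casq1 was not determined. Genes outside the 12 reached similar or higher values, with r = -0.579 for Ryr2, on chromosome 13, 0.660 for Fbln5 and 0.619 for Stim2. The count among neighbours is thus not read as a trait of the region around Casq1. Strain genotypes were not used here.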
